A study of Mus musculus with 9 samples.

Results

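The T-box genes examined in the forelimb bud were *Tbx2*, *Tbx3*, *Tbx4*, *Tbx5*, *Tbx15* and *Tbx18*. These genes were taken by symbol, 6 of the 32289 genes and features counted, and their level was read in every library, across the cell lineages of the limb bud, across 10 positions within its mesenchyme and across 3 genotypes. Single-cell RNA was profiled from pairs of mouse forelimb buds at E10.75 of embryonic development (37 to 39 somites). Wild-type (Wt) embryos were compared with embryos homozygous for either of 2 *Grem1* alleles, EC1CRM8Δ/Δ (E1C8Δ/Δ) and EC1CRM5Δ/Δ (E1C5Δ/Δ), each of which lacks several of the enhancers that drive *Grem1* in the limb bud and gives limbs with 4 digits. No library carried a further transgene or treatment in its labels. Each genotype had 3 libraries, 9 in all, each made from a pair of forelimb buds and, according to the methods, biologically independent, so the library is the unit of every test.

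T-box proteins share a DNA-binding domain and act as transcription factors that activate or repress. *Tbx5* is needed to start forelimb outgrowth and *Tbx4* is its hindlimb counterpart, while *Tbx2* and *Tbx3* are repressors of the anterior and posterior limb margins and the interdigital tissue that lie in the pathways of SHH and BMP signalling. *Tbx15* and *Tbx18* are close relatives that act in the growth of the skeleton of the limb and girdle. GREM1 is a secreted antagonist of BMPs that links the *Shh*-expressing cells of the posterior margin to the FGFs of the apical ectodermal ridge.

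The genes lie in 4 places (GRCm38, GENCODE M21). On chromosome 11, *Tbx2* (chr11:85832551-85841948, plus strand) lies 44473 bp before *Tbx4* (chr11:85886422-85916097, plus strand). On chromosome 5, *Tbx3* (chr5:119670669-119684724, plus strand) lies 147943 bp before *Tbx5* (chr5:119832668-119885219, plus strand). *Tbx15* lies on chromosome 3 (chr3:99240381-99354259, plus strand) and *Tbx18* on chromosome 9 (chr9:87702800-87731260, minus strand). *Tbx3* and *Tbx15* each overlap an antisense gene that was counted apart, *Tbx3os1* and *Gm43120*.

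The RefSeq promoter table (GRCm38.p6) held entries for *Tbx18* and *Tbx4*, and these are also the members that were lower in E1C5Δ/Δ mesenchyme. The 250 bases before each start are given 5′ to 3′ on the strand of the gene, with capitals marking a CCAAT box or TATAAA motif read on either strand.
Tbx18, chr9:87731261-87731510, minus strand: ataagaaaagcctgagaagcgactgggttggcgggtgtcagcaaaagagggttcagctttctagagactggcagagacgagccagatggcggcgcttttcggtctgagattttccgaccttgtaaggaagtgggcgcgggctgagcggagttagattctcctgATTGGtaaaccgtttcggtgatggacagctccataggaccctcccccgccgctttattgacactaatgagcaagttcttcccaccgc
Tbx4, chr11:85896515-85896764, plus strand: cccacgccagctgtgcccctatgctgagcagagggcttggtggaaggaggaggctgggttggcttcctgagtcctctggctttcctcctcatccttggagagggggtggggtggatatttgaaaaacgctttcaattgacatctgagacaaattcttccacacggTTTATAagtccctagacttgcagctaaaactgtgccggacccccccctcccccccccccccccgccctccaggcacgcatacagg
The *Tbx18* window holds ATTGG, the reverse complement of CCAAT, and the *Tbx4* window holds TTTATA, the reverse complement of TATAAA. The motif CCAAT on either strand occurs in 33.8% and TATAAA in 12.4% of the 32851 promoters of this length. Neither window holds the T-box core motif AGGTGT on either strand, which 11.8% of the promoters hold. The GC content is 54.0% for *Tbx18* and 58.4% for *Tbx4*. The RefSeq start of *Tbx4* lies inside the GENCODE gene, so this window covers an internal start.

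Cells were assigned by marker genes. Of 133086 barcodes, 52432 passed the filters of the study, 41970 were kept after doublets and cells under 10000 UMIs were taken out, and of these 34066 were mesenchymal by their markers, between 452 and 6385 per library. Total UMIs per library ranged from 26620760 to 500559729 and the median UMIs per mesenchymal cell from 16987 to 49907. The smallest libraries were Wt replicate 3 and E1C8Δ/Δ replicate 1. The mesenchymal marker *Prrx1* stood between 562 and 747 CPM in the mesenchyme of every library. *Xist* exceeded the Y-linked genes in 4 of the 9 libraries, all of them mutant, so embryo sex and genotype are partly confounded. Some libraries held both signals. *Xist* and the Y-linked genes stood at 22.0 and 153 CPM in Wt replicate 1, 8.30 and 108 CPM in E1C8Δ/Δ replicate 3 and 693 and 3.06 CPM in E1C8Δ/Δ replicate 1. In every other library the lower of the signals was at most 0.10 CPM. Pairs of libraries shared up to 28 cell barcodes, where 9.71 were expected by chance. In mesenchyme the 9 erythroid markers summed to 354 to 1263 CPM in Wt, 236 to 541 CPM in E1C8Δ/Δ and 306 to 1521 CPM in E1C5Δ/Δ, and the summed markers of every other lineage were at or below 18.2 CPM. Their part in the results was not tested.

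All 6 genes were genes of the mesenchyme. Levels are given as CPM, that is a gene's share of the UMIs summed over a group of cells in a library, scaled to the same total, from 3′ counts that are not scaled to length, so they are compared within a gene only. The median over the 9 libraries in mesenchyme was 20.7 CPM for *Tbx2* (11.6 to 37.4), 60.1 CPM for *Tbx3* (52.6 to 69.6), 4.06 CPM for *Tbx4* (1.75 to 6.80), 111 CPM for *Tbx5* (98.3 to 133), 84.0 CPM for *Tbx15* (57.4 to 95.5) and 74.3 CPM for *Tbx18* (44.8 to 103). Against the mesenchyme of the same libraries, all 30 tests in muscle progenitors, erythroid cells, ectoderm, endothelium and myeloid cells were lower at an adjusted p under 0.05 (edgeR's quasi-likelihood test, Benjamini-Hochberg over all genes tested, as for every adjusted p of a level here). The percentage of all genes called lower was 28.7 in muscle progenitors, 45.3 in erythroid cells, 28 in ectoderm, 42.5 in endothelium and 38.1 in myeloid cells. *Tbx3* in ectoderm showed the smallest difference, with a log2 fold change of -1.29 (SE 0.13, adjusted p = 8.9e-08). It stood between 17.6 and 35.7 CPM in the 6 libraries with 20 or more ectodermal cells, whereas *Tbx2* stayed between 0.975 and 4.17 CPM and *Tbx5* between 0.696 and 9.57 CPM in the same cells. In all other lineages and for all other members the log2 fold changes were between -5.38 and -2.32.

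**Figure D1:**
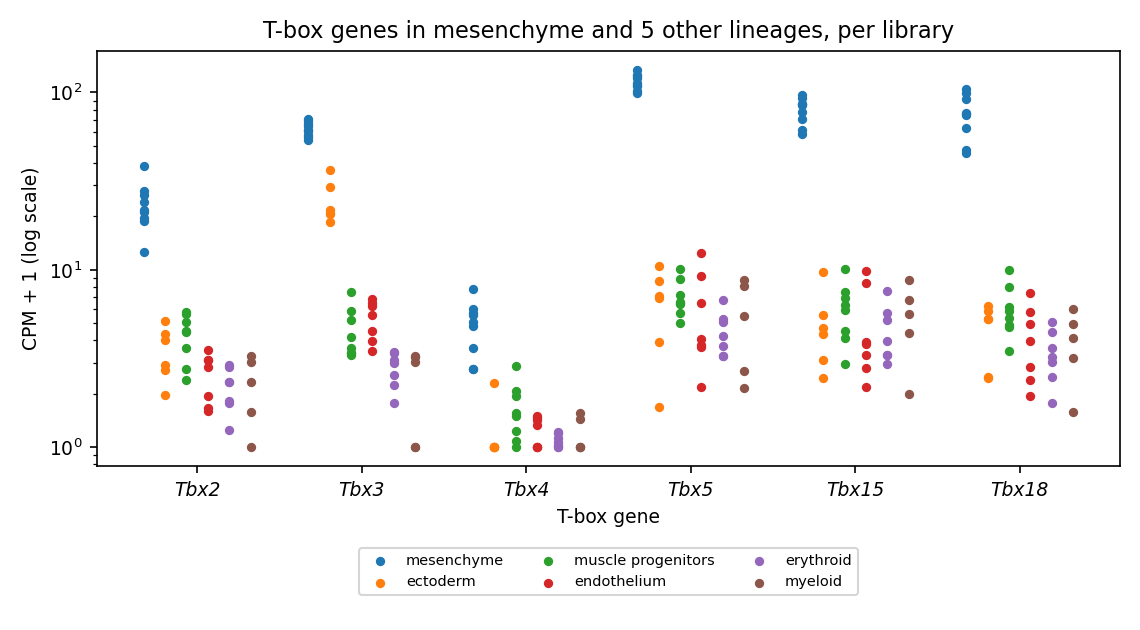
Level of each T-box gene (CPM + 1, log scale) in the mesenchyme and the other lineages, 1 point per library with at least 20 cells. All genes are highest in mesenchyme, and *Tbx3* keeps 17.6 to 35.7 CPM in ectoderm.

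Erythroid cells, which should lack these factors, give the background of free RNA. In cells thinned to 10000 UMIs, *Tbx5* had a UMI in 57.2 to 66.6% of mesenchymal cells and in 2.12 to 5.00% of erythroid cells, *Tbx15* in 36.1 to 51.1% against 2.54 to 7.39%, *Tbx18* in 29.5 to 49.6% against 1.28 to 3.75% and *Tbx3* in 29.2 to 37.9% against 1.06 to 5.00%. *Tbx2* was found in 7.69 to 20.7% of mesenchymal and 0 to 3.50% of erythroid cells and *Tbx4* in 1.35 to 6.31% of mesenchymal cells, and *Tbx4* in at most 0.31% of erythroid cells. At equal depth the lowest mesenchymal share of each member lay above its highest erythroid share. *Tbx4* was sparse but present in all 9 forelimb libraries, with 66 to 1193 UMIs each. The hindlimb genes *Pitx1*, *Isl1*, *Hoxc10* and *Hoxc11* did not exceed 1.62 CPM in any of them. *Pitx1* stood at 0.345, 0.362 and 0.872 CPM in Wt, 0.519, 0.657 and 0.489 CPM in E1C8Δ/Δ and 0.206, 0.264 and 0.160 CPM in E1C5Δ/Δ. These values come from 9 to 91 UMIs per library, and the E1C5Δ/Δ libraries were the lowest. The relation of *Pitx1* to the level of *Tbx4* was not tested.

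Positions in the mesenchyme were read from gates set on known marker genes, such as *Shh* for the posterior organizer, *Sox9* and *Col2a1* for the condensing skeleton or *Osr1* and *Hand2* for the proximal-posterior cells. A cell may fall in several gates, and 20.3% of the Hoxa13+Hoxd13+ cells were also Shh+. Each gate was compared with the other mesenchymal cells of the same library. Of the 60 tests, 16 were higher, 29 were lower and 15 did not pass. *Tbx2* and *Tbx3* were higher in the same gates, *Tbx4*, *Tbx15* and *Tbx18* were highest in the skeletal gate, and *Tbx5* varied least. In Asb4+Msx1+ cells all 6 members were lower, by -0.12 for *Tbx5*, -0.29 for *Tbx15*, -0.68 for *Tbx4*, -0.93 for *Tbx18*, -0.97 for *Tbx3* and -1.35 for *Tbx2* on the log2 scale. The gates differ widely in general, since the percentage of all genes called was 27.8 for Shh+, 40.4 for Hoxa13+Hoxd13+, 43.6 for Asb4+Msx1+, 21.9 for Pax1+Alx4+, 61.2 for Gsc+Creb5+, 64.3 for Sox9+Col2a1+, 47 for Grem1+, 28.4 for Osr1+Hand2+, 6.45 for Sostdc1+Hgf+ and 46.5 for Hoxa11+Hoxd11+. The size of a difference therefore says more than its call, and it moved by over 1.5 times towards 0 in 19 of the 45 calls under at least 1 other setting, in 15 of them when the gates were set on all UMIs rather than on thinned counts.

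*Tbx2* and *Tbx3*, the repressors of the limb margins, were higher in 3 gates, Osr1+Hand2+, Shh+ and Pax1+Alx4+, and lowest in the skeletal gate. In Osr1+Hand2+ cells the Wt libraries held 64.1, 57.9 and 106 CPM of *Tbx2*, the E1C8Δ/Δ libraries 55.4, 64.9 and 65.3 CPM and the E1C5Δ/Δ libraries 45.0, 54.2 and 52.2 CPM, while the other mesenchymal cells held 10.4 to 33.7 CPM. The ranges did not overlap, and the log2 fold change was 1.68 (SE 0.073, adjusted p = 1.8e-17). *Tbx3* reached 198, 158 and 168 CPM there in Wt, 154, 136 and 134 CPM in E1C8Δ/Δ and 186, 130 and 208 CPM in E1C5Δ/Δ, against 49.4 to 64.4 CPM in the other cells (log2 fold change 1.54, SE 0.05, adjusted p = 1.1e-20). In Shh+ cells, for which 7 libraries had 20 or more, *Tbx2* stood at 48.6 to 85.2 CPM and *Tbx3* at 100 to 219 CPM, with log2 fold changes of 1.87 (SE 0.094) and 1.41 (SE 0.085). In Pax1+Alx4+ cells the log2 fold change was 1.45 (SE 0.12) for *Tbx2* and 0.52 (SE 0.1) for *Tbx3*. There *Tbx2* was higher in 8 of 8 libraries, and *Tbx3* was higher in 6 and lower in 2. Both genes were lower in Sox9+Col2a1+ cells, by -2.56 (SE 0.13, adjusted p = 3.7e-12) for *Tbx2* and by -1.46 (SE 0.081, adjusted p = 1.3e-11) for *Tbx3* on the log2 scale, in 9 of 9 libraries. They were also lower in Grem1+ cells (log2 fold changes -1.46 and -0.89), whereas in Sostdc1+Hgf+ cells *Tbx2* was lower (-1.18, SE 0.12) and *Tbx3* did not pass (-0.06, SE 0.061). In Gsc+Creb5+ cells *Tbx2* was lower by -0.37 on the log2 scale, but this value turned to 0.16 with gates on all UMIs. The same setting kept the other calls of both genes but gave smaller differences, of -1.48 and -0.83 in Sox9+Col2a1+ cells and -0.33 and -0.57 in Asb4+Msx1+ cells for *Tbx2* and *Tbx3*, and of 1.07 in Osr1+Hand2+ and -0.60 in Sostdc1+Hgf+ cells for *Tbx2*.

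In Wt the highest and lowest gate means of *Tbx2* were 77.7 CPM ± 24.7 (SD, n = 3) in Pax1+Alx4+ and 3.95 CPM ± 1.65 in Sox9+Col2a1+, a ratio of 19.6. Its 3 highest gates, Pax1+Alx4+, Osr1+Hand2+ (76.1 ± 26.4) and Shh+ (63.8 and 48.6 CPM in 2 libraries), differed by less than their spread. *Tbx3* ran from 174 CPM ± 20.9 in Osr1+Hand2+ to 27.0 CPM ± 5.24 in Sox9+Col2a1+, a ratio of 6.47.

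*Tbx4*, *Tbx15* and *Tbx18* were highest in the skeletal gate, where *Tbx2* and *Tbx3* were lowest. *Tbx4* in Sox9+Col2a1+ cells stood at 16.5, 15.9 and 20.1 CPM in Wt, 4.48, 10.9 and 13.5 CPM in E1C8Δ/Δ and 4.37, 3.14 and 4.70 CPM in E1C5Δ/Δ. The other mesenchymal cells held 1.69 to 4.86 CPM, and the gate was higher in 9 of 9 libraries (log2 fold change 1.65, SE 0.14, adjusted p = 5.1e-09). *Tbx15* was higher in the same gate by 1.11 on the log2 scale (SE 0.043, adjusted p = 9.8e-14) and *Tbx18* by 1.03 (SE 0.065, adjusted p = 7.6e-11), each in 9 of 9 libraries. Outside the skeletal gate these genes diverged, and *Tbx18* moved with *Tbx2* and *Tbx3* in some gates. It was lower in Grem1+ cells (-0.48, SE 0.058) and higher in Osr1+Hand2+ cells (0.14, SE 0.049), although the latter call was lost in 4 of 12 other settings and without 3 single libraries. *Tbx15* was lowest in Shh+ cells (log2 fold change -1.96, SE 0.13, adjusted p = 3.4e-13) and lower in Osr1+Hand2+ cells (-0.70, SE 0.054, or -0.27 with gates on all UMIs). *Tbx18* was lowest in the distal Hoxa13+Hoxd13+ cells (-2.35, SE 0.073, adjusted p = 4.7e-20), followed by Shh+ (-1.34, SE 0.061) and Hoxa11+Hoxd11+ cells (-1.29, SE 0.053, or -0.71 with gates on all UMIs). It was higher in Sostdc1+Hgf+ cells (0.59, SE 0.047) and Gsc+Creb5+ cells (0.34, SE 0.034). Over all genotypes *Tbx4* had its lowest log2 fold change in Pax1+Alx4+ cells (-1.77, SE 0.22), where a library held at most 17 of its UMIs. It was higher in Gsc+Creb5+ cells (0.65, SE 0.12, or 0.31 with gates on all UMIs).

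In Wt, *Tbx15* ran from 195 CPM ± 8.65 (SD, n = 3) in Sox9+Col2a1+ to 28.7 CPM ± 9.15 (n = 2) in Shh+, a ratio of 6.79, and the next gate after the skeletal one, Grem1+ at 88.6 CPM ± 8.74, lay outside its spread. *Tbx18* ran from 198 CPM ± 34.5 in Sox9+Col2a1+ to 17.9 CPM ± 4.33 in Hoxa13+Hoxd13+, a ratio of 11.1, and its next 3 gates, Sostdc1+Hgf+, Gsc+Creb5+ and Osr1+Hand2+, stood at 120, 116 and 102 CPM and differed by less than their spread. *Tbx4* ran from 17.5 CPM ± 2.26 in Sox9+Col2a1+ through 7.23 CPM ± 1.59 in Gsc+Creb5+ to 1.39 CPM ± 0.513 in Sostdc1+Hgf+, a ratio of 12.6. The lowest of these means rests on 2 libraries with 60 and 79 cells of the gate.

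*Tbx5*, the gene that starts the forelimb, varied least. Its Wt gate means ran from 164 CPM ± 17.1 in Osr1+Hand2+ to 95.6 CPM ± 18.4 in Hoxa13+Hoxd13+, a ratio of 1.72. It was higher in Osr1+Hand2+ cells (log2 fold change 0.40, SE 0.035, adjusted p = 2e-10) and Sostdc1+Hgf+ cells (0.20, SE 0.041) and lower in Pax1+Alx4+ (-0.42, SE 0.064), Hoxa13+Hoxd13+ (-0.23, SE 0.063) and Asb4+Msx1+ cells (-0.12, SE 0.027). The call in Pax1+Alx4+ was lost with stricter gates (-0.22) and that in Hoxa13+Hoxd13+ with gates on all UMIs (-0.12). In the other 5 gates it did not pass, with log2 fold changes between -0.03 and 0.05.

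**Figure D2:**
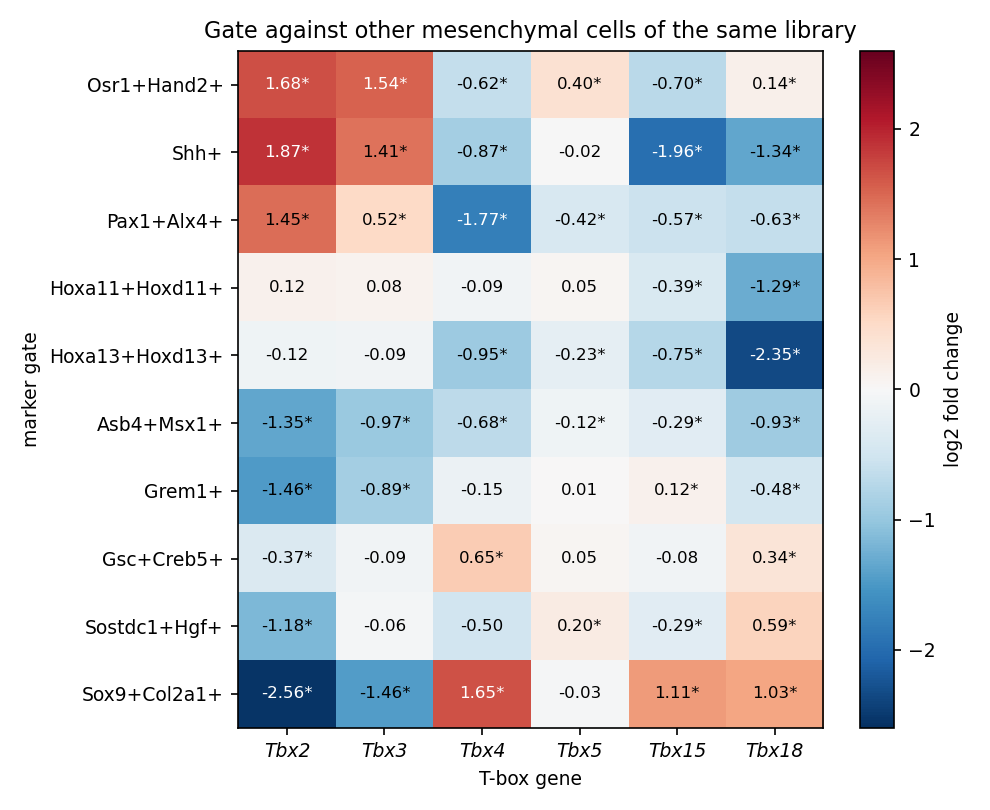
Heat map of the log2 fold change of each T-box gene (columns) in each marker gate (rows) against the other mesenchymal cells of the same libraries, with an asterisk where the adjusted p is under 0.05. *Tbx2* and *Tbx3* are higher in Osr1+Hand2+, Shh+ and Pax1+Alx4+ cells and lower in Sox9+Col2a1+ cells, where *Tbx4*, *Tbx15* and *Tbx18* are higher.

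The genes were also compared in pairs within single cells, without the gates. Among mesenchymal cells thinned to 10000 UMIs, *Tbx3* had a UMI in 65.5% ± 4.90 (SD over 9 libraries) of the cells with *Tbx2* and in 27.7% ± 2.51 of the cells without it, a difference of 37.8 percentage points that was positive in 9 of 9 libraries (exact sign-flip permutation test, two-sided, p = 0.0039, the smallest it can give, adjusted p = 0.0059 over 15 pairs). *Tbx15* was found in 21.3% of the *Tbx2* cells and 50.2% of the others, and in 33.5% of the *Tbx3* cells and 52.5% of the others, both lower in 9 of 9 libraries. *Tbx18* was likewise less frequent among *Tbx2* cells (29.6% against 43.4%). *Tbx4* cells more often held *Tbx15* (64.0% against 45.5%) and *Tbx18* (55.4% against 40.7%), and *Tbx15* cells more often held *Tbx18* (49.5% against 34.0%). In all, 14 of the 15 pairs passed at an adjusted p under 0.05. Pairs of other genes were not tested, so this count has no background and the sizes say more than the calls. The pair *Tbx3* and *Tbx18* did not pass (42.3% against 40.8%, higher in 6 of 9 libraries, exact permutation p = 0.26), and its difference turned to -0.88 percentage points after thinning to 5000 UMIs. That thinning also lost the calls of *Tbx3* and *Tbx4* (-0.42 percentage points in place of -1.54, exact permutation adjusted p = 0.15), which was also lost when any of 5 of the libraries was left out, and of *Tbx4* and *Tbx5* (adjusted p = 0.072). The call of *Tbx2* and *Tbx5* was lost in cells outside every gate (adjusted p = 0.11). Cells of a library share its depth and its free RNA, and their part in these shares was not tested beyond the thinning.

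**Figure D3:**
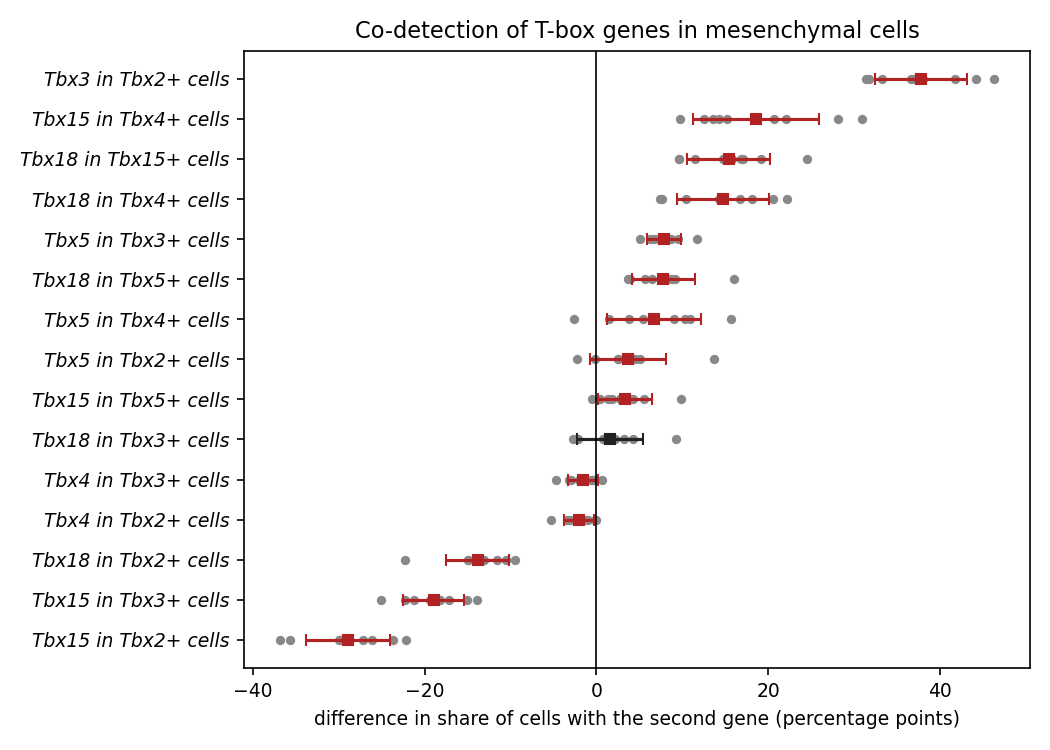
Difference in the percentage of cells with a UMI of the second gene between mesenchymal cells with and without the first, in percentage points, for all 15 pairs. Grey points are the 9 libraries, squares the mean (red where the adjusted p is under 0.05, black where it is not) and bars the SD. The pair *Tbx2* and *Tbx3* stands at 37.8 and the pair *Tbx2* and *Tbx15* at -28.9.

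Across the 10 gate means in Wt, the log2 levels of *Tbx2* and *Tbx3* correlated with r = 0.88, and across the mutant gate means with r = 0.95, whereas *Tbx2* and *Tbx15* gave -0.76 and -0.84. These are descriptions over 10 points that share libraries and cells. Among 8511 candidate genes outside the family, the genes with the pattern most like *Tbx2* were *Tbx3os1* (r = 0.92), *Angpt1* (0.92) and *Ndufa2* (0.88), and those most like *Tbx3* were *Tbx3os1* (0.92), *Mosmo* (0.91) and *Angpt1* (0.89). *Tbx3os1*, which is transcribed antisense from the *Tbx3* start, headed both lists. Some of these genes hardly varied, since a correlation does not measure the size of a change. *Ndufa2* spanned 8.56 to 8.66, *Mosmo* 5.31 to 5.57 and *Zfp869* 4.46 to 4.62 on the scale of log2(CPM + 1) over the Wt gates, against 1.00 to 4.01 for *Tbx3os1* and 1.07 to 3.97 for *Angpt1*. *Phldb1* (0.99), *Arhgef1* and *Arrdc3* were most like *Tbx4*, *Whrn* (0.95), *Pde7a* and *Tcf7l2* most like *Tbx15*, *Anapc16* (0.98), *Numa1* and *Arhgap18* most like *Tbx18*, and *Shox2* (0.96), *Zfp869* and *Robo1* most like *Tbx5*. In the mutant gates *Ndufa2* fell to r = 0.34 and *Mosmo* to -0.14, while *Tbx3os1* kept 0.91 with *Tbx3*.

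The comparison between genotypes asked whether the T-box genes changed where *Grem1* was reduced. *Grem1* itself stood at 43.4, 28.7 and 29.8 CPM in Wt mesenchyme, 11.8, 11.2 and 14.0 CPM in E1C8Δ/Δ and 17.8, 16.4 and 25.4 CPM in E1C5Δ/Δ. All mutant libraries lay below all Wt libraries (both mutants against Wt, log2 fold change -1.10, SE 0.15, adjusted p = 0.0064). *Tcf7l2*, which is among the genes most like *Tbx15*, was also lower (-0.74, SE 0.095, adjusted p = 0.0054). All comparisons with Wt share the same Wt libraries. Where libraries of the genotypes are said not to overlap, the share of all genes that do the same was not counted.

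*Tbx4* and *Tbx18* were lower in E1C5Δ/Δ mesenchyme, and *Tbx4* was also called for the mean of both mutants. *Tbx4* stood at 4.59, 4.75 and 6.80 CPM in Wt, 3.81, 4.99 and 4.06 CPM in E1C8Δ/Δ and 1.75, 1.77 and 2.65 CPM in E1C5Δ/Δ. The E1C5Δ/Δ libraries lay below all others, whereas the E1C8Δ/Δ libraries overlapped with Wt. For both mutants against Wt the log2 fold change of *Tbx4* was -0.82 (SE 0.16, adjusted p = 0.03), the only one of 6 members called, where 1.98% of all genes were called. For E1C5Δ/Δ alone it was -1.32 (SE 0.19, adjusted p = 0.011). For E1C8Δ/Δ alone it did not pass and stood between -0.43 and -0.15 when any 1 library was left out. *Tbx18* stood at 90.3, 75.7 and 103 CPM in Wt, 74.3, 98.2 and 73.2 CPM in E1C8Δ/Δ and 44.8, 46.6 and 62.1 CPM in E1C5Δ/Δ. Its E1C5Δ/Δ libraries were again below all others, with a log2 fold change of -0.75 (SE 0.14, adjusted p = 0.026). Thus 2 of 6 members were lower in E1C5Δ/Δ, where 1.42% of all genes were called. In E1C8Δ/Δ 0 of 6 passed, where 8.53% of all genes were called. There 1 member, *Tbx15*, had an unadjusted p under 0.05, as had 4071 of the 16129 genes tested.

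These calls rest on few libraries. The E1C5Δ/Δ difference of *Tbx4* kept an adjusted p of at most 0.048 when any 1 library was left out. The value for both mutants stood between -0.93 and -0.64 and was no longer called without Wt replicate 2, Wt replicate 3, E1C8Δ/Δ replicate 1, E1C8Δ/Δ replicate 3, E1C5Δ/Δ replicate 1 or E1C5Δ/Δ replicate 2 (adjusted p up to 0.089). *Tbx18* in E1C5Δ/Δ was not called without Wt replicate 3 (-0.66), E1C5Δ/Δ replicate 1 (-0.69) or E1C5Δ/Δ replicate 2 (-0.71). With a term for embryo sex, *Tbx4* in E1C5Δ/Δ stood at -1.42 (adjusted p = 0.071) and *Tbx18* at -0.85 (adjusted p = 0.11), so neither was called.

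The other members did not pass. *Tbx15* stood at 95.5, 85.3 and 92.6 CPM in Wt, 76.1, 84.0 and 69.6 CPM in E1C8Δ/Δ and 57.4, 60.6 and 85.0 CPM in E1C5Δ/Δ. All 6 mutant libraries lay below the 3 Wt libraries, with a log2 fold change of -0.33 (SE 0.097, adjusted p = 0.11). *Tbx5* (-0.14, SE 0.078, adjusted p = 0.38) and *Tbx3* (-0.08, SE 0.089, adjusted p = 0.66) overlapped between groups. *Tbx2* (-0.29, SE 0.22, adjusted p = 0.51) had a single high Wt library, replicate 3 at 37.4 CPM, without which the value was 0.05. The median over the 6 members was -0.31, against -0.01 over all 16129 genes.

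**Figure D4:**
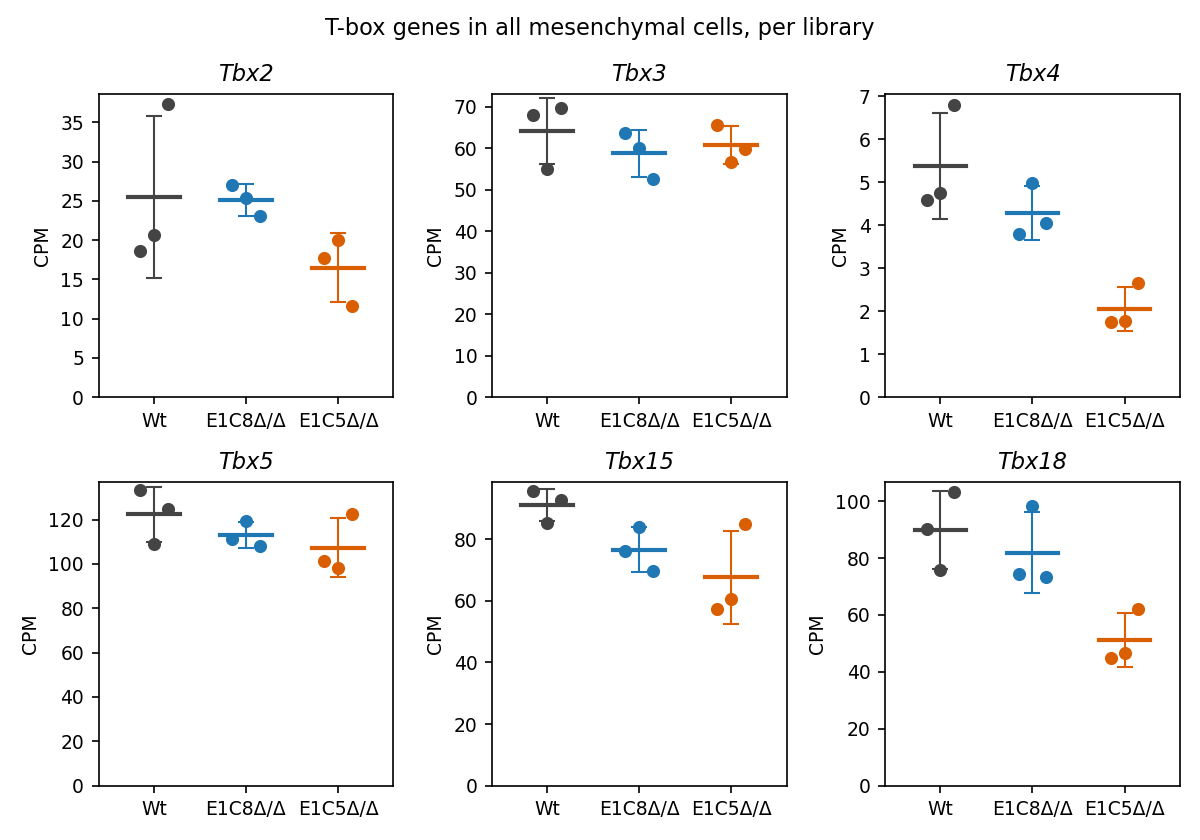
Level of each T-box gene in the mesenchyme (CPM) by genotype, 1 point per library, a line for the mean and bars for the SD (3 libraries per genotype). The E1C5Δ/Δ points of *Tbx4* (1.75 to 2.65) and *Tbx18* (44.8 to 62.1) lie below all other points.

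Within the gates, the members were called lower against Wt in 4 of the 10. For both mutants 4 of the 6 calls were in Sox9+Col2a1+ and 2 in Osr1+Hand2+ cells, and for E1C5Δ/Δ 4 of 9 were in Sox9+Col2a1+, 2 in Osr1+Hand2+, 2 in Asb4+Msx1+ and 1 in Shh+ cells. All of these calls were lost under at least 1 other setting. The Sox9+Col2a1+ gate held 10.9% ± 3.18 of Wt, 7.58% ± 1.60 of E1C8Δ/Δ and 3.63% ± 1.79 of E1C5Δ/Δ mesenchymal cells (SD, n = 3), a difference between mutants and Wt that did not pass in an exact permutation test over the 10 gates (two-sided p = 0.048, adjusted p = 0.24, smallest possible p 0.012). Because *Tbx4*, *Tbx15* and *Tbx18* are highest in these cells, this share moves with their level in the whole mesenchyme, and its part there was not tested. The study names *Grem1*, *Shh*, *Asb4*, *Msx1*, *Hoxa13*, *Hoxd13* and *Hand2* among the genes that change in the mutants. Gates set on them, among them Osr1+Hand2+, may hold partly different cells in each genotype. Among its clusters with *Sox9* and *Col2a1*, the study reports the largest reduced and a proximal one increased in both mutants. The Sox9+Col2a1+ gate may therefore also hold a different mix of cells in each genotype, which was not tested.

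In Sox9+Col2a1+ cells, 4 of the 6 members were lower in the mutants, where 2% of all genes were called. The largest difference was that of *Tbx4*, whose values are given above. All 6 mutant libraries were below the 3 Wt libraries (both mutants log2 fold change -1.30, SE 0.19, adjusted p = 0.0039, E1C5Δ/Δ -1.96, SE 0.25, adjusted p = 0.0011). The counts behind it are small, with 103 to 392 UMIs in Wt, 4 to 122 in E1C8Δ/Δ and 5 to 59 in E1C5Δ/Δ. *Tbx18* stood at 214, 159 and 222 CPM in Wt, 125, 189 and 166 CPM in E1C8Δ/Δ and 73.3, 92.8 and 101 CPM in E1C5Δ/Δ (both mutants -0.71, SE 0.13, adjusted p = 0.015, E1C5Δ/Δ -1.11, SE 0.16, adjusted p = 0.0026). *Tbx5*, which varied least across positions, stood at 167, 127 and 158 CPM in Wt, 96.3, 133 and 125 CPM in E1C8Δ/Δ and 70.6, 89.1 and 91.9 CPM in E1C5Δ/Δ (both mutants -0.58, SE 0.12, adjusted p = 0.02, E1C5Δ/Δ -0.81, SE 0.14, adjusted p = 0.0061). *Tbx15* stood at 205, 188 and 192 CPM in Wt, 169, 174 and 162 CPM in E1C8Δ/Δ and 117, 139 and 147 CPM in E1C5Δ/Δ (both mutants -0.38, SE 0.088, adjusted p = 0.038, E1C5Δ/Δ -0.51, SE 0.1, adjusted p = 0.015). For all 4 genes the 3 E1C5Δ/Δ libraries lay below every Wt library and, for *Tbx5*, *Tbx15* and *Tbx18*, below every E1C8Δ/Δ library. These 4 are the genes already called. *Tbx2* and *Tbx3* were not called against Wt, but their E1C5Δ/Δ libraries also lay below all others, for *Tbx2* with few UMIs. The E1C8Δ/Δ libraries of *Tbx2* lay above every Wt library. For E1C5Δ/Δ against Wt all 6 members had an unadjusted p under 0.05, as had 1328 of the 11680 genes tested. The share of all genes whose libraries separate in this way was not counted. For E1C5Δ/Δ 2.14% of all genes were called in this gate.

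Among the skeletal calls for E1C5Δ/Δ, those of *Tbx4*, *Tbx5* and *Tbx18* held without any single library. That of *Tbx15* did not hold without E1C5Δ/Δ replicate 1 (-0.46, adjusted p = 0.077). With the term for embryo sex none of the 4 was called (*Tbx4* -1.72, *Tbx18* -1.06, *Tbx5* -0.72 and *Tbx15* -0.49). With gates on all UMIs *Tbx5* (-0.42) and *Tbx15* (-0.42) were not called, and *Tbx15* was not with stricter gates (-0.43). For both mutants together, *Tbx18* was not called without Wt replicate 3 (-0.63), *Tbx5* not without Wt replicate 1 (-0.51) or Wt replicate 3 (-0.56), and *Tbx15* kept its call only without E1C5Δ/Δ replicate 3. With gates on all UMIs none of these 3 was called (-0.44 for *Tbx18*, -0.32 for *Tbx5* and -0.30 for *Tbx15*), while *Tbx4* lost its call only with the term for embryo sex (-1.10).

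**Figure D5:**
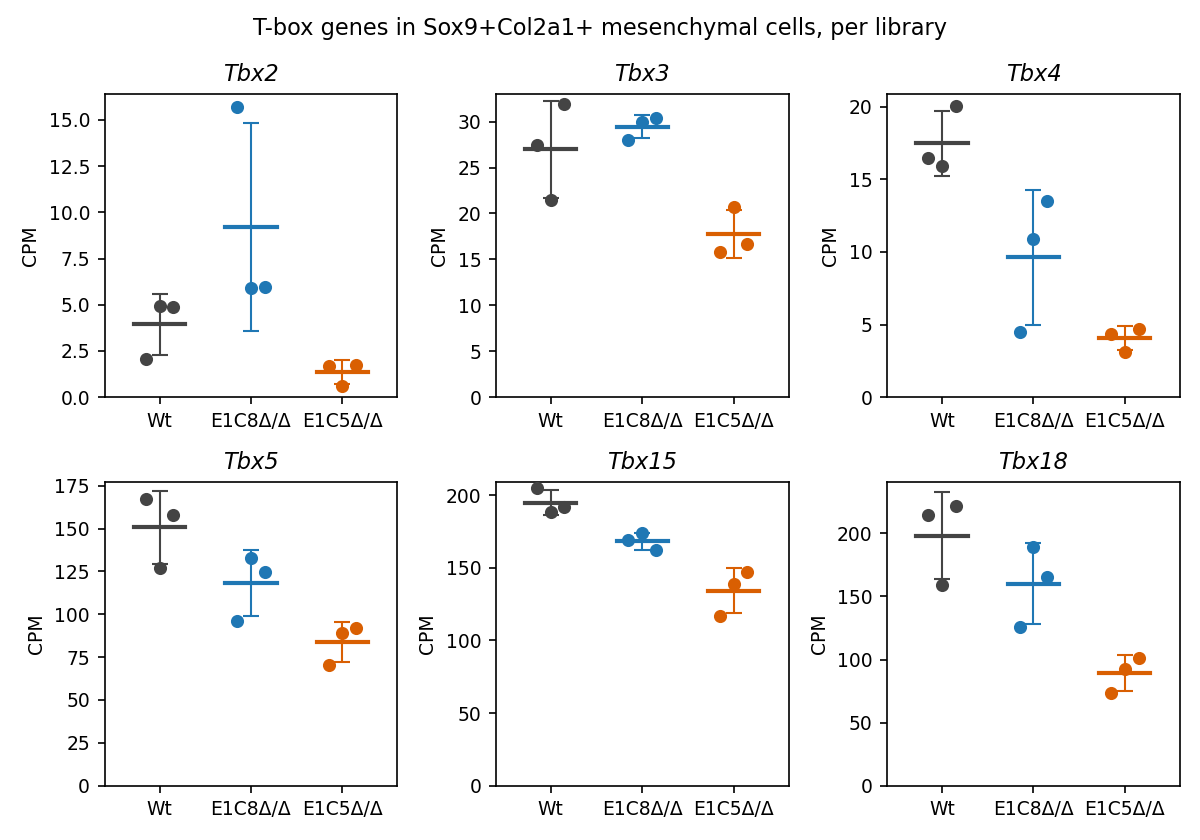
Level of each T-box gene (CPM) in Sox9+Col2a1+ cells by genotype, 1 point per library, a line for the mean and bars for the SD. *Tbx4* falls from 15.9 to 20.1 in Wt to 3.14 to 4.70 in E1C5Δ/Δ. The E1C5Δ/Δ points of *Tbx5*, *Tbx15* and *Tbx18*, and those of *Tbx2* and *Tbx3*, which were not called against Wt, lie below all other points.

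In Osr1+Hand2+ cells *Tbx15* and *Tbx18* were lower, 2 of 6 members where 0.528% of all genes were called for both mutants and 0.148% for E1C5Δ/Δ. *Tbx15* stood at 64.1, 62.1 and 66.4 CPM in Wt, 44.1, 55.0 and 46.4 CPM in E1C8Δ/Δ and 32.7, 27.6 and 39.9 CPM in E1C5Δ/Δ, so that the 3 genotypes did not overlap. Its log2 fold change was -0.64 (SE 0.11, adjusted p = 0.021) for both mutants and -0.87 (SE 0.14, adjusted p = 0.0089) for E1C5Δ/Δ. *Tbx18* stood at 106, 96.4 and 103 CPM in Wt, 119, 95.3 and 79.1 CPM in E1C8Δ/Δ and 49.8, 48.9 and 57.5 CPM in E1C5Δ/Δ (both mutants -0.53, SE 0.11, adjusted p = 0.036, E1C5Δ/Δ -0.93, SE 0.13, adjusted p = 0.0028). The E1C5Δ/Δ difference of *Tbx18* held without any single library and with the term for embryo sex, and was lost only with stricter gates (-0.68, adjusted p = 0.76). The E1C5Δ/Δ difference of *Tbx15* also held without any single library but was lost in 4 of 13 other settings, with the term for embryo sex (adjusted p = 0.099), no doublet removal (-0.74), another thinning draw (-0.95) and stricter gates (-0.29, adjusted p = 0.92). For both mutants *Tbx15* was not called without Wt replicate 2 (-0.63) or Wt replicate 3 (-0.62), and *Tbx18* kept its call only without E1C8Δ/Δ replicate 1 or E1C5Δ/Δ replicate 3. They were lost in 5 and 7 of 12 other settings, and stricter gates gave -0.45 and -0.30.

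In Asb4+Msx1+ cells, *Tbx2* and *Tbx3* were lower in E1C5Δ/Δ, where 0.218% of all genes were called. *Tbx2* stood at 10.2, 10.9 and 26.9 CPM in Wt, 9.05, 16.9 and 10.2 CPM in E1C8Δ/Δ and 2.25, 3.16 and 3.19 CPM in E1C5Δ/Δ (log2 fold change -2.28, SE 0.35, adjusted p = 0.019). *Tbx3* stood at 49.5, 33.2 and 66.3 CPM in Wt, 47.3, 48.3 and 33.1 CPM in E1C8Δ/Δ and 22.3, 19.4 and 17.7 CPM in E1C5Δ/Δ (-1.24, SE 0.21, adjusted p = 0.032). Here too the E1C5Δ/Δ libraries lay below all others. With gates set on all UMIs the differences were smaller and not called, -0.97 for *Tbx2* and -0.38 for *Tbx3*. In all the calls were lost in 4 and 7 of 13 other settings. *Tbx2* was also lost without E1C5Δ/Δ replicate 1 (-2.17) or replicate 3 (-2.35), and *Tbx3* without Wt replicate 3 (-1.02), E1C8Δ/Δ replicate 1 (-1.24), E1C5Δ/Δ replicate 1 (-1.36), replicate 2 (-1.24) or replicate 3 (-1.11).

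In Shh+ cells *Tbx15* was lower in E1C5Δ/Δ, the only member called where 0.252% of all genes were. It stood at 22.2 and 35.2 CPM in Wt, 29.3 and 29.3 CPM in E1C8Δ/Δ and 11.4, 5.44 and 12.1 CPM in E1C5Δ/Δ, the latter from 6 to 97 UMIs (-1.40, SE 0.26, adjusted p = 0.043). This call was lost without Wt replicate 2 (-0.95), E1C8Δ/Δ replicate 2 (-1.40), E1C8Δ/Δ replicate 3 (-1.41), E1C5Δ/Δ replicate 2 (-1.28) or E1C5Δ/Δ replicate 3 (-1.54), and in 6 of 13 other settings. *Tbx2* and *Tbx3*, which are high in these cells, did not pass there in any comparison with Wt. Over all 10 gates, 57 tests of the members could be run. Of these 6 were lower for both mutants, where 0.642% of all genes tested over the gates were called. For E1C5Δ/Δ 9 were lower, where 0.485% were called, and for E1C8Δ/Δ 0 passed, where 2.74% were called. None was higher. In mesenchymal cells outside every gate, *Tbx4* (-1.20, SE 0.2, adjusted p = 0.019) and *Tbx18* (-0.69, SE 0.14, adjusted p = 0.04) were lower in E1C5Δ/Δ, where 1.1% of all genes were called.

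A call in E1C5Δ/Δ but not in E1C8Δ/Δ does not by itself show that the alleles differ, so the mutants were compared directly. In mesenchyme *Tbx4* was higher in E1C8Δ/Δ than in E1C5Δ/Δ by 0.99 on the log2 scale (SE 0.19, adjusted p = 0.014) and *Tbx18* by 0.60 (SE 0.14, adjusted p = 0.024), 2 of 6 members where 8.92% of all genes were called. *Tbx2* was 0.51 higher (SE 0.26), which did not pass, and *Tbx5* differed by -0.01 (SE 0.09). The gates where *Tbx4* and *Tbx18* were both higher also differed in size between the alleles. Gsc+Creb5+ cells made up 6.85 to 8.41% of E1C8Δ/Δ and 2.64 to 3.21% of E1C5Δ/Δ mesenchyme. Sox9+Col2a1+ cells made up 6.42 to 9.41% and 2.21 to 5.64%. The part of these shares in the difference over the whole mesenchyme was not tested. *Tbx4* was not called without E1C8Δ/Δ replicate 2 (0.88), and *Tbx18* not without E1C8Δ/Δ replicate 2 (0.46), E1C8Δ/Δ replicate 3 (0.65), E1C5Δ/Δ replicate 1 (0.55) or E1C5Δ/Δ replicate 2 (0.56). Within the gates 12 of 57 tests were higher in E1C8Δ/Δ and none was lower, where 2.66% of all genes tested over the gates were called. Of the 12 calls, 11 were lost under at least 1 other setting and 10 without at least 1 library. *Tbx18* in Osr1+Hand2+ cells (0.80, SE 0.13, adjusted p = 0.0055), where 3.28% of all genes were called, and *Tbx2* in Asb4+Msx1+ cells (2.11, SE 0.35, adjusted p = 0.007), where 7.38% were, held without any single library. The former was not called with stricter gates (0.78, adjusted p = 0.14), and the latter was smaller and not called with gates on all UMIs (0.64, adjusted p = 0.22). In cells outside every gate 2 of 6 members were higher in E1C8Δ/Δ, *Tbx4* by 0.94 and *Tbx18* by 0.52 on the log2 scale, where 8.45% of all genes were called. *Grem1* RNA summed over the mesenchyme was lower in E1C8Δ/Δ than in E1C5Δ/Δ (log2 difference -0.75, SE 0.18, adjusted p = 0.026). For the protein the study describes the reverse order, with less GREM1 left in E1C5Δ/Δ than in E1C8Δ/Δ forelimb buds. The relation of either to the T-box genes was not tested.

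Whether the positions themselves differed between mutants and Wt was tested as an interaction. The difference in position effect between mutants and Wt passed in 1 of 60 tests, where 0.233% of all genes tested over the gates were called. It was that of *Tbx18* in Grem1+ cells (0.38, SE 0.08, adjusted p = 0.019), where 0.723% of all genes were called. *Tbx18* in Grem1+ cells stood at 58.6, 52.8 and 52.9 CPM in Wt, 66.2, 73.2 and 47.8 CPM in E1C8Δ/Δ and 35.2, 42.1 and 58.0 CPM in E1C5Δ/Δ, which overlap, while the other mesenchyme was lower in E1C5Δ/Δ. The call was lost without Wt replicate 1 (0.37), Wt replicate 3 (0.32) or E1C5Δ/Δ replicate 3 (0.27). An unadjusted p under 0.05 was found in 25 of the 60 tests. For the partner genes and neighbours named below it was found in 53 of 153 and 16 of 122, and the share of all genes was not counted. Tests that did not pass therefore do not show that position effects are equal in the genotypes.

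Other T-box genes, partners and neighbours were counted as a frame for the members. Of the 10 other T-box genes in the annotation, 5 could be tested in mesenchyme (*Mga*, *T*, *Tbr1*, *Tbx1* and *Tbx6*), of which *Mga* stood at 56.1 to 99.6 CPM and the others below 0.38 CPM. None passed against Wt in mesenchyme. *Mga*, a T-box partner of MAX, was lower in E1C8Δ/Δ than in E1C5Δ/Δ (-0.51, SE 0.12, adjusted p = 0.03), and it was lower in E1C8Δ/Δ than in Wt in Shh+ (-0.79, SE 0.17, adjusted p = 0.037) and Grem1+ cells (-0.53, SE 0.13, adjusted p = 0.035), 2 of 10 tests over the gates. Of 16 partners and regulators tested in mesenchyme, 2 were lower for both mutants (*Grem1* and *Tcf7l2*), 3 for E1C8Δ/Δ and 1 for E1C5Δ/Δ. The third in E1C8Δ/Δ was *Hand2* (-0.37, SE 0.093, adjusted p = 0.033), which marks posterior mesenchyme. Of 14 protein-coding neighbours of the members, 1 was called against Wt in mesenchyme, *Rbm19* beyond *Tbx5*, which was lower in E1C8Δ/Δ (-0.73, SE 0.12, adjusted p = 0.0077). Over 111 tests of neighbours in the gates, *Rbm19* was again lower in E1C8Δ/Δ in 5 gates, and in Sox9+Col2a1+ cells *Spag17*, a neighbour of *Tbx15*, was lower for both mutants (-1.41, SE 0.35, adjusted p = 0.048) and for E1C5Δ/Δ (-1.90, SE 0.47, adjusted p = 0.048). Apart from *Tbx2*, which is itself a member, no neighbour of *Tbx18* or *Tbx4* was called against Wt in E1C5Δ/Δ.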

How the data were processed

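Libraries were prepared with the 10x 3′ v3.1 chemistry. Per the labels, the authors aligned reads to mm10 with Cell Ranger 6.0.1 and analysed cells in Seurat 4.3.0.1, whereas the study's methods give a later Seurat version. Seurat did not make the counts used here. The deposited files hold UMI counts per gene and barcode, before the study's cell filter. Barcodes with over 2500 genes, under 200000 UMIs and under 10% mitochondrial UMIs were kept, doublets were scored against simulated doublets (0.8% per 1000 barcodes removed), and cells with 10000 or more UMIs were thinned to 10000 to assign lineages and gates by marker genes. A lineage needed 2 markers and 4 UMIs, mesenchyme 5 UMIs of its panel, and a gate each of its markers at a minimum that at most 25% of Wt mesenchymal cells reached. All UMIs of a group were then summed per library (20 or more cells) and tested in edgeR 4.0.16 (quasi-likelihood, TMM, low counts filtered, R 4.3.3), with Benjamini-Hochberg adjustment over all genes tested. Genes of the X and Y chromosomes and 4 transgene features were left out of the tests. All genotypes entered 1 fit, while positions were compared within libraries. Co-detection and gate shares were tested by exact permutation over libraries (scipy 1.17.1).

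The members, gene lists, gates and tests were chosen with earlier results of these data known. The genes named besides the members were the other T-box genes, a list of T-box partners, targets and regulators, the nearest 2 protein-coding genes on each side, and the 3 genes with the most similar Wt gate pattern (Pearson correlation of log2(CPM + 1), at least 10 CPM in 1 gate). The scripts were tested on simulated data. P-values measure the spread between libraries. Same-numbered libraries did not deviate together, so the main genotype fits did not pair them by number. With 3 libraries per genotype, this check cannot exclude a shared batch. Alternatives covered DESeq2 1.42.0, normalization, filters, sex, gates, thinning and single libraries.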

Additional observations from a re-analysis of the deposited data

Results flagged for a closer look

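The effects of the 2 mutant alleles differed in 16 tests of the T-box genes, all with the level higher in E1C8Δ/Δ than in E1C5Δ/Δ (edgeR's quasi-likelihood test of the difference between the alleles, adjusted p under 0.05 over all genes tested). These were 2 of 6 tests in mesenchyme, where 8.92% of all genes were called, 12 of 57 within gates, where 2.66% were, and 2 of 6 in cells outside every gate, where 8.45% were. On the log2 scale, *Tbx4* differed by 0.99 in mesenchyme, 1.33 in Sox9+Col2a1+, 0.97 in Asb4+Msx1+, 0.97 in Grem1+ and 0.94 in cells outside every gate. *Tbx18* differed by 0.60 in mesenchyme, 0.81 in Sox9+Col2a1+, 0.87 in Asb4+Msx1+, 0.80 in Osr1+Hand2+ and 0.52 in cells outside every gate. *Tbx2* differed by 2.11 in Asb4+Msx1+, 2.10 in Sox9+Col2a1+, where the E1C5Δ/Δ libraries held 1 to 22 of its UMIs, and 0.79 in Grem1+. *Tbx3* differed by 1.06 in Asb4+Msx1+ and 0.75 in Sox9+Col2a1+, and *Tbx15* by 1.44 in Shh+. Gates and the whole mesenchyme share cells, so these are not independent of each other. Many of the calls were fragile. Of the 12 within gates, 11 were lost under at least 1 other setting and 10 without at least 1 library. Of the 2 in mesenchyme, 1 was lost under another setting and both without at least 1 library, and no other setting was run for cells outside every gate. With gates on all UMIs, *Tbx2* and *Tbx3* differed by 0.57 and 0.11 in Sox9+Col2a1+ and by 0.64 and 0.22 in Asb4+Msx1+ cells, *Tbx18* by 0.56 in Asb4+Msx1+ and *Tbx15* by 0.78 in Shh+ cells, none of them called. With stricter gates *Tbx4* and *Tbx2* differed by 0.33 and 0.41 in Grem1+ cells, neither called.

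The position effect of *Tbx18* in Grem1+ cells differed between mutants and Wt by 0.38 on the log2 scale (adjusted p = 0.019), 1 of 60 tests, in a gate where 0.723% of all genes were called. It was not called without the 2 smallest libraries (0.31, adjusted p = 0.15) or when any of 3 single libraries was left out. Among 60 groups of 4 to 10 libraries, none held a library that stood apart from the others at Dixon's 95% value, while chance alone gives about 1 in 20.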

How the results depend on the processing

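For position, among alternatives other than leaving out 1 library, 538 values kept direction and call, 8 lost the call and 2 reversed, namely *Tbx2* in Gsc+Creb5+ cells with gates on all UMIs (0.16) and *Tbx18* in Osr1+Hand2+ cells against cells outside every gate (-0.020). Sizes moved more, over 1.5 times towards 0 in 19 of 45 calls under at least 1 setting, as for *Tbx4* in Osr1+Hand2+ (-0.62 to -0.19) and *Tbx2* in Asb4+Msx1+ cells (-1.35 to -0.33) with gates on all UMIs. Leaving out 1 library kept 411 values and lost 3 calls, all of *Tbx18* in Osr1+Hand2+. The co-detection of *Tbx3* and *Tbx18* turned to -0.88 at 5000 UMIs and -0.93 percentage points outside every gate, other pairs kept their sign, and 3 of 14 calls were lost in 1 setting each.

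Of the genotype calls, the 9 for E1C5Δ/Δ, the 6 for both mutants and 11 of the 12 between the alleles within gates were lost in at least 1 setting, and the cause was not tested. A term for embryo sex, fitted across libraries where sex and genotype are partly confounded, gave *Tbx4* -0.92 for both mutants (adjusted p = 0.22), *Tbx4* -1.42 and *Tbx18* -0.85 for E1C5Δ/Δ, and left 0 member calls in mesenchyme for either, 0 within gates for both mutants and 1 for E1C5Δ/Δ. Without the 2 smallest libraries (chosen after seeing the data), *Tbx4* was -0.60 for both mutants, *Tbx18* -0.66 for E1C5Δ/Δ and the *Tbx18* interaction in Grem1+ 0.31, with 0, 1 and 0 member calls, and 1 within gates for both mutants. Same-numbered libraries had correlations of deviations between -0.46 and 0.13, and other pairs between -0.44 and 0.67, which cannot exclude a shared batch. The replicate block gave *Tbx18* -0.76 for E1C5Δ/Δ (adjusted p = 0.054) and 1 member call in place of 2. DESeq2 called 3 members for both mutants in mesenchyme, and no filter on low counts 2. Within gates, with the percentage of all genes called over the gates in parentheses, no filter called 12 for both mutants (1.88), 2 for E1C8Δ/Δ (3.65) and 20 for E1C5Δ/Δ (1.49), gates on all UMIs 3 for both mutants (1.06) and 1 for E1C8Δ/Δ (5.31), stricter gates 3 for both mutants (0.416) and 3 for E1C5Δ/Δ (0.459), and another thinning draw 5 for E1C5Δ/Δ (0.518). The sex term called 0.0519% for both mutants and 0.0728% for E1C5Δ/Δ, and 0.257% were called for both mutants without the 2 smallest libraries.

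Leaving out 1 library in turn gave *Tbx4* -0.93 to -0.64 for both mutants and -1.49 to -1.14 for E1C5Δ/Δ, *Tbx18* -0.86 to -0.66 for E1C5Δ/Δ, and the interaction 0.27 to 0.50. Member calls in mesenchyme ranged from 0 to 3 for both mutants, 0 to 1 for E1C8Δ/Δ and 1 to 3 for E1C5Δ/Δ. The calls over all genes there ranged from 106 to 742, 323 to 1888 and 72 to 274. Member calls ranged from 1 to 6, 0 to 0 and 6 to 11 within gates, and from 0 to 7 for the interaction. For these the calls over all genes were not summed over the runs. Values near 0 changed sign without being called. *Tbx2* for both mutants was 0.042 without the 2 smallest libraries and -0.49 to 0.054 leaving out 1 library, the highest without Wt replicate 3. *Tbx2* in E1C8Δ/Δ was 0.10 with the sex term, 0.29 without the 2 smallest libraries and -0.23 to 0.31 leaving out 1 library, the highest again without Wt replicate 3. *Tbx18* in E1C8Δ/Δ was 0.031 without the 2 smallest libraries. *Tbx3* in E1C5Δ/Δ was 0.037 there and -0.099 to 0.044 leaving out 1 library, positive without Wt replicate 1, Wt replicate 3, E1C5Δ/Δ replicate 2 or E1C5Δ/Δ replicate 3. Over all genes, the calls for both mutants went from 320 to 913 with DESeq2, 508 without the filter, 87 with the block, 1 with the sex term and 37 without the 2 smallest libraries. Those for E1C8Δ/Δ went from 1376 to 2135 with DESeq2, 659 with the block, 106 with the sex term and 511 without the 2 smallest libraries, and those for E1C5Δ/Δ from 229 to 597, 119, 14 and 56, to 373 without the filter and to 89 with Wt and E1C5Δ/Δ alone. Depth limited the sparse members, with as few as 4 UMIs of *Tbx4* and 1 of *Tbx2* per library in Sox9+Col2a1+ cells.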

Other observations

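*Tbx1*, which was below 0.28 CPM in the mesenchyme of every library, was a gene of the endothelium in these data. It stood between 23.1 and 37.9 CPM in the 7 libraries with 20 or more endothelial cells, and its log2 fold change against mesenchyme was 7.65 (SE 0.2, adjusted p = 5.9e-19, edgeR's quasi-likelihood test), the opposite of the 6 forelimb members, which were all lower there. *T*, known from the primitive streak and notochord, was also higher in endothelium (4.93, SE 0.29, adjusted p = 1.4e-12), from 1.32 to 6.40 CPM.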
